A study of Rattus norvegicus with 8 samples.

Results

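AP-1 is a transcription factor made of pairs of bZIP proteins, and 10 of its subunit genes (Fosl1, Fosl2, Fos, Fosb, Jun, Junb, Jund, Atf3, Batf and Maff) are described here in rat lung endothelial cells after monocrotaline. The genes were found through the accessions of the array's probes: 9 of the 10 had a probe, with 10 probes in all among 30367 non-control probes, and all 9 passed the filter on dim probes that left 19137 genes. Fosb had no probe whose accession matched and is not analysed here. The members were chosen by their signals on these same arrays, where Fosl1 was higher after monocrotaline while other immediate early genes leaned lower, so the differences of the members are given as a description, with no test.

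The groups were 4 Sprague-Dawley rats given monocrotaline (60 mg/kg, injected under the skin) and 4 given saline, all aged 8 to 10 weeks and studied 5 days later. Monocrotaline is a plant alkaloid whose liver metabolite injures lung vessels, and its injection serves as a rat model of pulmonary hypertension. Cells carrying CD31, a surface protein found on endothelium but also on platelets and some leukocytes, were taken from collagenase-digested lung with magnetic beads, and RNA was isolated without culture and read on 1-colour arrays, 1 per rat. The comparison asks how gene expression in the lung endothelium differs early in this model.

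Fos-family proteins bind DNA only as partners of Jun-family proteins, whereas Jun proteins can also pair with each other. Fos, Fosb, Jun, Junb, Atf3 and Maff are immediate early genes: growth factors, cytokines, shear or the handling of cells can switch them on through MAP kinases without new protein synthesis. Fosl1 (FRA-1) and Fosl2 (FRA-2) usually follow later and last longer, and Fosl1 is itself an AP-1 target in many cells. FOSL1 lacks the strong transactivation domain of FOS, and JUND is the Jun protein most often present in resting cells.

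The arrays set the scale of every value. A scaled log2 signal is the log2 of the scanner's processed signal minus the 75th percentile of its array, so 0 is the signal at that percentile. Levels of different probes cannot be set against each other on this scale, and precision is limited by having 4 arrays in each group. The share of spots well above background ran from 70.8% to 77.7%. All 8 arrays lay on 1 slide, with monocrotaline samples in row 2 and saline samples in row 1, so slide row and treatment cannot be told apart. Of 19137 genes, 262 rose (1.37%) and 12 fell (0.0627%), 1.43% in all, after monocrotaline (limma, Benjamini-Hochberg adjusted p under 0.05). The rises numbered 84, 273, 249 and 68 without monocrotaline replicates 1, 2, 3 and 4, and 11, 114, 106 and 110 without saline replicates 1, 2, 3 and 4. The falls numbered 3, 93, 5 and 1 without those monocrotaline replicates, and 0, 1, 2 and 3 without those saline replicates. With the replicate number as a block, 0 genes rose and 0 fell. Same-numbered monocrotaline and saline samples lay in the same slide column, so this block is also a slide column block.

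Markers of the cells in the samples differed between the groups too. For scale, over all 19137 genes 1.37% rose, 0.0627% fell and 53.9% had a lower mean. At an unadjusted limma p under 0.05, 1383 of these genes were lower and 1286 higher. All 13 measured endothelial markers were well above background on every array, and all 13 had a lower group mean after monocrotaline, with 0 called by limma (6 were lower at an unadjusted p under 0.05) and a median log2 fold change of -0.50. Their summed signal, in units of an array's 75th percentile, was 142 to 241 in monocrotaline arrays and 219 to 309 in saline arrays. Among 18 T and NK cell markers 3 rose, all 18 had a higher group mean, and the summed signal was 16.5 to 30.4 in monocrotaline arrays against 3.91 to 9.23 in saline arrays. Those 3 calls became 0 without any one of monocrotaline replicates 1, 3 and 4 or saline replicates 1, 2 and 3, and became 5 without monocrotaline replicate 2. Of 19 cycling genes 16 rose, with a summed signal of 53.3 to 93.2 in monocrotaline arrays and 20.2 to 27.5 in saline arrays. That count became 10 and 9 without monocrotaline replicates 1 and 4, and 3, 10, 9 and 10 without saline replicates 1, 2, 3 and 4. With the replicate block, 0 cycling genes and 0 T and NK cell markers were called. Other lists were higher on average too, with 0 genes called in each. Of 12 airway markers 9 had a higher mean (median log2 fold change 1.79, with 4 higher at an unadjusted p under 0.05). Their summed signal was 29.3 to 60.3 in monocrotaline arrays against 45.5 to 60.7 in saline arrays. The largest part of that sum came from Tppp3, the brightest airway probe, which was among the markers with a lower mean (log2 fold change -0.54). The sum thus says little about the other airway markers. All 14 fibroblast and muscle markers (median 0.89, 1 at an unadjusted p under 0.05), all 8 erythroid and platelet markers (0.93, 0 at that p) and all 7 B and plasma cell markers (0.48, 1 at that p) had a higher mean. The summed signals of these 3 lists overlapped between the groups. They were 38.5 to 89.7 in monocrotaline arrays and 11.7 to 82.0 in saline arrays for fibroblast and muscle markers. For erythroid and platelet markers they were 50.1 to 339 in monocrotaline arrays and 36.7 to 79.3 in saline arrays. Most of the 339 came from Hbb-b1 on monocrotaline replicate 3, which read 8.32 there, against 5.43 to 6.43 on the other monocrotaline arrays. For B and plasma cell markers the sums were 26.1 to 81.7 in monocrotaline arrays and 19.3 to 60.8 in saline arrays. Of 13 myeloid markers 10 had a higher mean, as did 8 of 10 alveolar markers. The summed myeloid signal leaned the other way, at 88.2 to 162 in monocrotaline arrays against 129 to 211 in saline arrays. Lyz2, the brightest myeloid probe, had a lower mean (log2 fold change -0.34). The summed alveolar signal was 108 to 165 in monocrotaline arrays and 61.5 to 215 in saline arrays. No measured marker in these lists was below background on every array of either group. In such bulk samples, fewer cells of a type and less RNA per cell cannot be told apart.

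The upstream sequence of Fosl1, the member that stood apart, is printed beside those of Jund and Maff, the members where a searched motif was found. The sequences are the 250 bases before the annotated start, from RefSeq on build GRCr8, whose table held 7 of the 10 members (Fosl1, Fosl2, Fosb, Junb, Jund, Batf and Maff). They were searched on both strands for TGANTCA, the site AP-1 binds, for TGACGTCA, the site of CREB and ATF proteins, and for the CArG box, the site of serum response factor. The motifs searched do not overlap each other in these windows, and capitals mark matches.
Fosl1, chr1:212183635-212183884, plus strand: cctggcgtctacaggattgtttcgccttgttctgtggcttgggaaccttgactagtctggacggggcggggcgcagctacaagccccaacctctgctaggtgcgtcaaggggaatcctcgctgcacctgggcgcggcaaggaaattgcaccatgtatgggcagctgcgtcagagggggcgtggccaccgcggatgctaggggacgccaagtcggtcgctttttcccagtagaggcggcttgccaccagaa
Jund, chr16:18769772-18770021, minus strand: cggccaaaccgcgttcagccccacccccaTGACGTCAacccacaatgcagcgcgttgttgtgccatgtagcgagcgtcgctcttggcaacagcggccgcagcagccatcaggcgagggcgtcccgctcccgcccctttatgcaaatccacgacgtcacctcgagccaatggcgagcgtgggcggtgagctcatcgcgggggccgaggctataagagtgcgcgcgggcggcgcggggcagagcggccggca
Maff, chr7:112792537-112792786, plus strand: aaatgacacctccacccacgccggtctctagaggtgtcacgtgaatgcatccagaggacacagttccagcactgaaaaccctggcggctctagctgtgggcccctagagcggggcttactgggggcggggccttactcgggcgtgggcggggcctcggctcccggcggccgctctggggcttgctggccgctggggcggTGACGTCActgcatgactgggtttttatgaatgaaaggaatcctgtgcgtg
The TGACGTCA of Jund begins at position -221 and that of Maff at position -51, counted from the start. Of all 33469 promoters of this length, 1.59% hold TGACGTCA, 6.34% hold TGANTCA and 1.5% hold a CArG box. None of the 7 member windows holds TGANTCA or a CArG box, which says only that these letters are not in these 250 bases.

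Among the Fos-family genes, Fosl1 was higher in every monocrotaline sample than in any saline sample. Its probe read scaled log2 signals of -2.44, -3.97, -3.48 and -2.64 on monocrotaline replicates 1 to 4, against -5.51, -6.14, -6.81 and -5.84 on saline replicates 1 to 4. The monocrotaline mean was -3.13 ± 0.72 and the saline mean -6.07 ± 0.55 (SD, n = 4 each), a log2 difference of 2.94 ± 0.45 (SE) or 7.68-fold. The gap between the lowest monocrotaline and the highest saline array was wider than the range within either group.

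Fosl1 was close to background in the saline samples. The probe has 2 spots per array, and it stood well above background on 4 of 4 monocrotaline arrays, against 2 of 4 saline arrays, replicates 1 and 4. Before scaling, its processed intensity was 294, 129, 153 and 353 on the monocrotaline arrays and between 14.8 and 38.0 on the saline arrays. Under normexp background correction with an offset of 50, which is more than the processed intensity on any of the saline arrays, the log2 difference was 1.35. Leaving out any one array gave 2.70 to 3.22. Without monocrotaline replicates 1 and 3, where airway markers were highest, it was 2.77.

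T and NK cell markers and cycling genes were higher on the same arrays as Fosl1. Relative to the saline mean, the mean log2 signal of the 19 cycling genes was 2.13, 1.52, 1.28 and 2.11 on monocrotaline replicates 1 to 4, and the 18 T and NK cell markers averaged 1.37, 0.99, 1.96 and 1.52. Fosl1 and the cycling genes were both highest on monocrotaline replicates 1 and 4, whereas the T and NK cell markers were highest on replicate 3. Airway markers averaged 2.29, 0.37, 2.55 and 0.66 over the saline mean on those arrays, and fibroblast and muscle markers 1.41, 1.09, 0.74 and 0.37. The part of these cells in the Fosl1 signal was not tested.

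**Figure D1:**
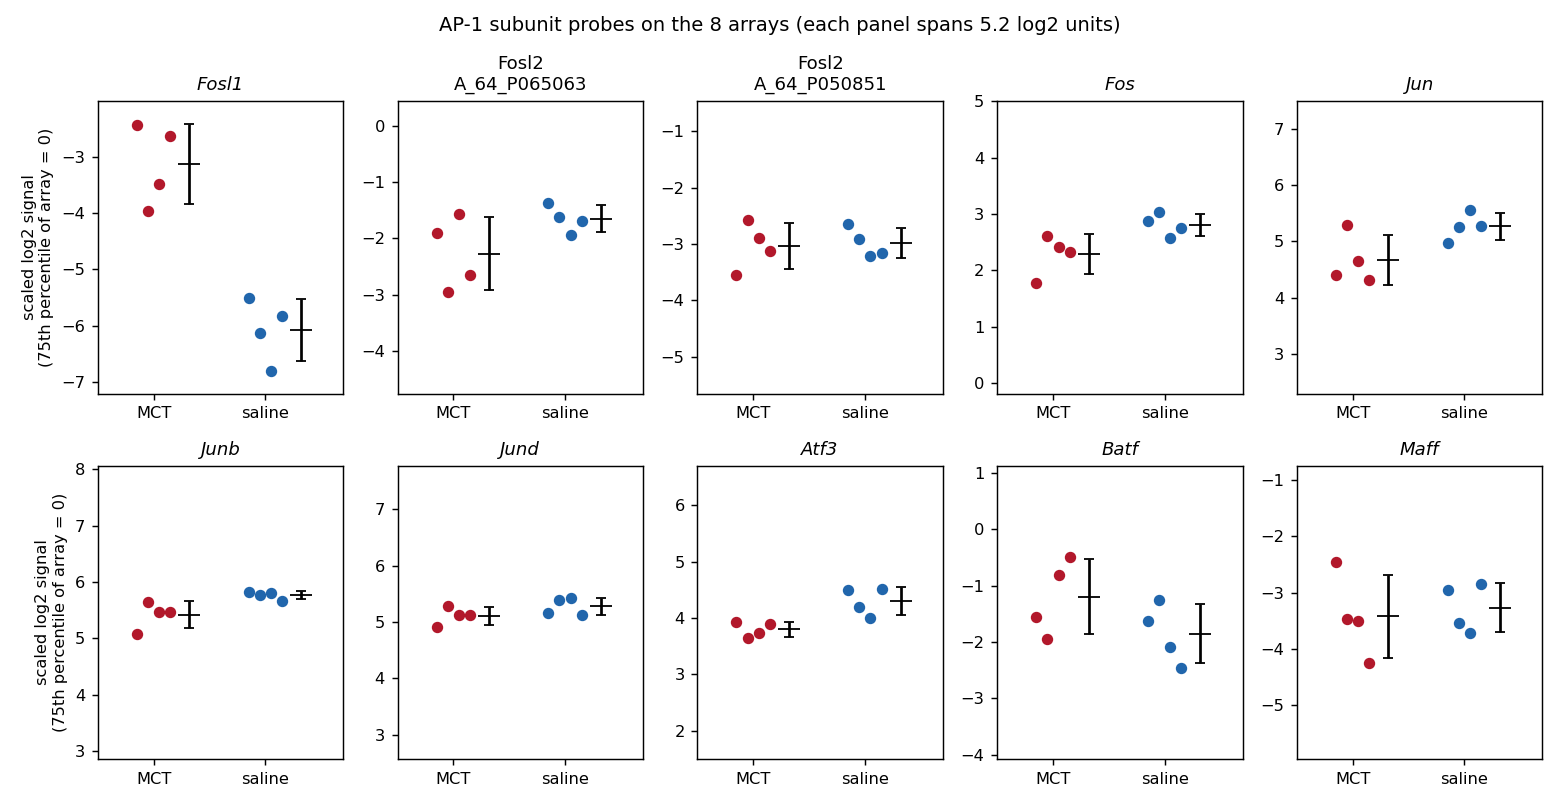
Scaled log2 signal of the 10 AP-1 subunit probes (vertical axis, each panel spanning 5.2 log2 units around its own centre) on the 4 monocrotaline (MCT, red, left) and 4 saline (blue, right) arrays in order of replicate number, with the mean and SD in black. Fosl1 is the member whose groups lie far apart, with monocrotaline arrays at -3.97 to -2.44 and saline arrays at -6.81 to -5.51.

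Fosl2, the other late Fos-family gene, gave no single answer. Its 2 probes carry the same accession. The brighter one read -1.91, -2.95, -1.57 and -2.65 on monocrotaline replicates 1 to 4, against -1.36, -1.63, -1.94 and -1.68 on saline replicates 1 to 4, a log2 difference of -0.62 ± 0.34 (SE). The dimmer one read -3.54, -2.58, -2.89 and -3.12 on the monocrotaline arrays, against -2.64, -2.91, -3.22 and -3.16 on the saline arrays, a difference of -0.05 ± 0.24 (SE). The groups overlapped on both probes. The probes disagreed on single arrays as well: monocrotaline replicate 2 was the lowest of all 8 on the brighter probe and the highest on the dimmer one. The mean of both probes gave -0.33, and leaving out monocrotaline replicates 1 and 3 moved the brighter probe's difference to -1.15.

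Fos, the founding member of the family, was lower on average after monocrotaline. Its values were 1.78, 2.61, 2.41 and 2.33 on monocrotaline replicates 1 to 4, against 2.87, 3.04, 2.58 and 2.75 on saline replicates 1 to 4. Monocrotaline replicate 1 lay well below the rest, and replicate 2 reached just above the lowest saline array, so the groups overlapped. The mean was 2.28 ± 0.36 in monocrotaline arrays and 2.81 ± 0.20 in saline arrays (SD, n = 4 each), a log2 difference of -0.53 ± 0.20 (SE), or 1.44-fold lower. Leaving out any one array gave -0.63 to -0.36.

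The Jun family, which supplies the partners of the Fos proteins, leaned the same way. Jun read 4.41, 5.29, 4.66 and 4.33 on monocrotaline replicates 1 to 4, against 4.97, 5.26, 5.56 and 5.28 on saline replicates 1 to 4. Its monocrotaline replicate 2 sat among the saline values while the other 3 lay below all of them, and the log2 difference was -0.60 ± 0.25 (SE). Junb, which often restrains JUN activity, read 5.08, 5.65, 5.47 and 5.47 on the monocrotaline arrays and 5.83, 5.77, 5.81 and 5.66 on the saline arrays. All monocrotaline arrays lay below all saline arrays for Junb, though replicate 2 only just, and the difference was -0.35 ± 0.13 (SE). The saline values of Junb were the tightest of all members, with an SD of 0.07. Jund read 4.91, 5.29, 5.13 and 5.12 on the monocrotaline arrays and 5.16, 5.39, 5.43 and 5.13 on the saline arrays, and its groups overlapped, with a difference of -0.17 ± 0.11 (SE).

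Atf3, a stress-induced factor that pairs with Jun proteins and can repress their targets, was lower in every monocrotaline sample. It read 3.93, 3.65, 3.73 and 3.90 on monocrotaline replicates 1 to 4, against 4.50, 4.20, 4.00 and 4.51 on saline replicates 1 to 4. The monocrotaline values were close together (SD 0.14, n = 4) and the saline values less so (SD 0.25, n = 4), with a log2 difference of -0.50 ± 0.14 (SE), or 1.42-fold lower.

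Batf and Maff varied widely between rats of 1 group. Batf, a partner of JUN proteins known best from T and B lymphocytes, read -1.55, -1.94, -0.81 and -0.49 on monocrotaline replicates 1 to 4, against -1.62, -1.26, -2.08 and -2.46 on saline replicates 1 to 4. Monocrotaline replicates 3 and 4 lay above all saline arrays and the other 2 within their range, with a log2 difference of 0.65 ± 0.42 (SE). T and NK cell markers also averaged highest on monocrotaline replicates 3 and 4 (1.96 and 1.52 over the saline mean, against 1.37 and 0.99 on replicates 1 and 2) and lowest on saline replicate 4 (-0.84), where Batf was lowest. Myeloid markers were likewise highest on monocrotaline replicates 3 and 4 (1.02 and 0.77, against 0.31 and -0.71). Among the saline arrays they were lowest on replicate 4 (-0.46). B and plasma cell markers were also highest on monocrotaline replicates 3 and 4 (1.15 and 0.44, against -0.31 and 0.43). Among the saline arrays these were lowest on replicate 3 (-0.58). The part of lymphocytes or other leukocytes in the Batf signal was not tested. Maff, a small Maf protein with no transactivation domain, read -2.46, -3.46, -3.51 and -4.25 on the monocrotaline arrays and -2.95, -3.54, -3.72 and -2.85 on the saline arrays. Its monocrotaline range enclosed the saline range, the difference was -0.15 ± 0.43 (SE), and it turned to 0.12 without monocrotaline replicate 4.

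Set side by side, 7 of the 8 measured members other than Fosl1 had a lower mean after monocrotaline, with Batf the exception, though 4 of 8 when arrays were scaled to the endothelial markers. Without that scaling 53.9% of all genes had a lower mean. The endothelial scaling moved the median of all genes to 0.47, so most genes had a higher mean under it. The 53.9% is thus no background for the 4 of 8, and the share of all genes lower under that scaling was not counted. The median log2 difference of the 8 members was -0.42, against -0.03 over all genes tested. It lay between -0.47 and -0.33 under 18 other settings. When arrays were scaled to the endothelial markers it was 0.07, beside 0.47 over all genes. Fosl1 was the member with all monocrotaline arrays above all saline arrays, which 4.56% of all genes showed. Junb and Atf3 were the members with all monocrotaline arrays below all saline arrays, which 3.99% of all genes showed. Since the members were picked for these differences, nothing is read from the counts.

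The lower values of the AP-1 genes stood beside lower endothelial markers. The mean of the 8 members other than Fosl1, over their saline mean, was -0.31, -0.32, -0.14 and -0.36 on monocrotaline replicates 1 to 4, while the mean of the 13 endothelial markers was -0.39, -0.09, -0.71 and -0.80. On the saline arrays the members spanned -0.13 to 0.09 and the endothelial markers -0.25 to 0.39. When each array was instead scaled to the mean of its 13 endothelial markers, a setting chosen after the data were seen, the median of all genes was 0.47 in place of -0.03 and the direction of several members turned. Junb, Jund and Maff were then higher after monocrotaline, at 0.14, 0.33 and 0.34, all below that new median. Fosl2, Fos, Jun and Atf3 were at -0.12, -0.03, -0.11 and -0.01. Fosl1 was at 3.44. Against the endothelial markers, Junb, Jund and Maff were thus not lower. The values of Fosl2, Fos, Jun and Atf3 all lay nearer to 0 than the SEs of their differences given above. The part of a changed endothelial share in the lower AP-1 values was not tested.

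**Figure D2:**
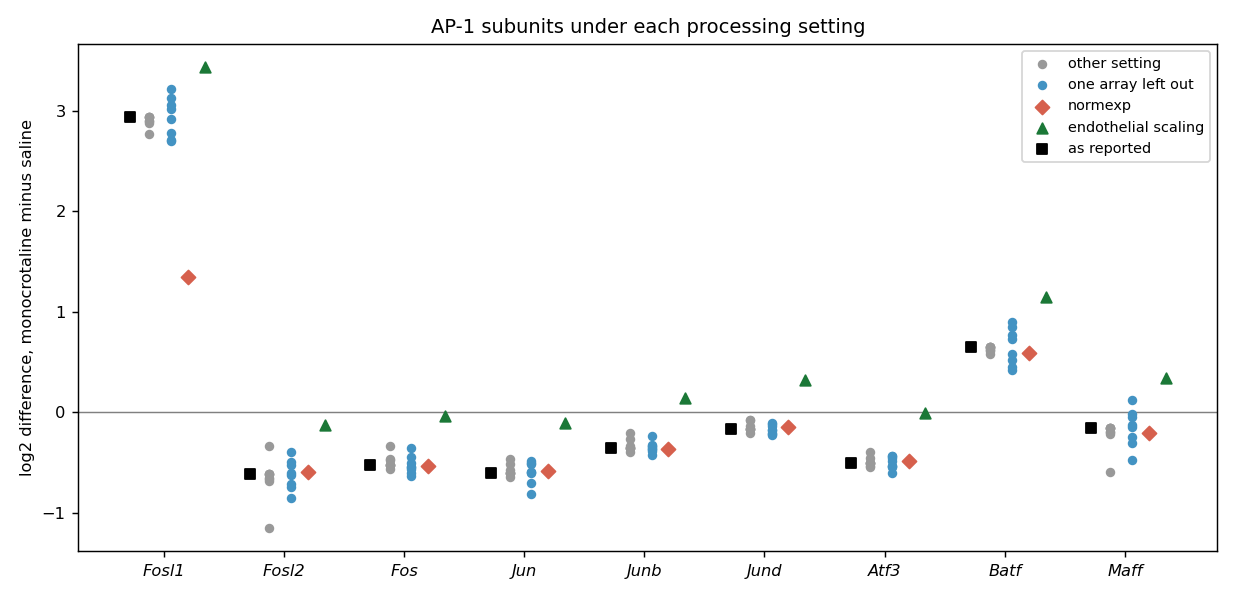
Log2 difference between monocrotaline and saline means (vertical axis) for the 9 measured AP-1 subunits, as reported (black squares), with 1 array left out (blue), with normexp background correction (red diamonds) scaled to the endothelial markers (green triangles) and under the other settings (grey). Fosl1 is at 2.70 to 3.22 with 1 array left out and 1.35 with normexp, Maff crosses 0, and Junb and Jund are above 0 (0.14 and 0.33) when arrays are scaled to the endothelial markers.

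The genes whose signals ran closest to Fosl1 over the 8 arrays were Ddias, which protects cells from death after DNA damage, Gtse1, a p53-restraining microtubule protein, Pbk, a mitotic kinase, Ccne1, the cyclin that starts DNA replication, and Asf1b, a histone chaperone. Closeness is the mean absolute difference of log2 signals, each centred on its own mean over the 8 arrays, among 11093 genes with a symbol that were well above background on all arrays of at least 1 group. It was 0.30 for Ddias, 0.31 for Gtse1, 0.34 for Pbk, 0.35 for Ccne1 and 0.36 for Asf1b. On monocrotaline replicates 1 to 4 Fosl1 lay 2.16, 0.64, 1.12 and 1.97 above its mean, and Ccne1 1.98, 1.15, 0.72 and 2.01. The measure favours genes that differ between the groups by about as much as Fosl1, and the group difference makes up most of it.

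Fos and Jun had other nearest genes. Gabbr1, a GABA-B receptor subunit, and Nfat5, an osmotic stress factor, lay closest to Fos, at 0.09 and 0.11, followed by Zfp316, Snn and Mettl26. Osr1, a zinc finger factor of embryonic mesenchyme, and Mzf1, a zinc finger factor of myeloid cells, lay closest to Jun, at 0.09 each, followed by Zfp608, St3gal4 and Plvap, the protein of endothelial diaphragms. Within the AP-1 genes Junb and Jund were the closest pair, at 0.10, and Fos and Junb next, at 0.14. All 3 were lowest on monocrotaline replicate 1. The measure is not scaled for spread, so genes that vary little over the arrays, such as Junb and Jund, lie close on it. The group difference makes up most of the measure for Fosl1. Fos and Jun, with smaller differences of opposite sign, could therefore hardly share its nearest genes.

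**Figure D3:**
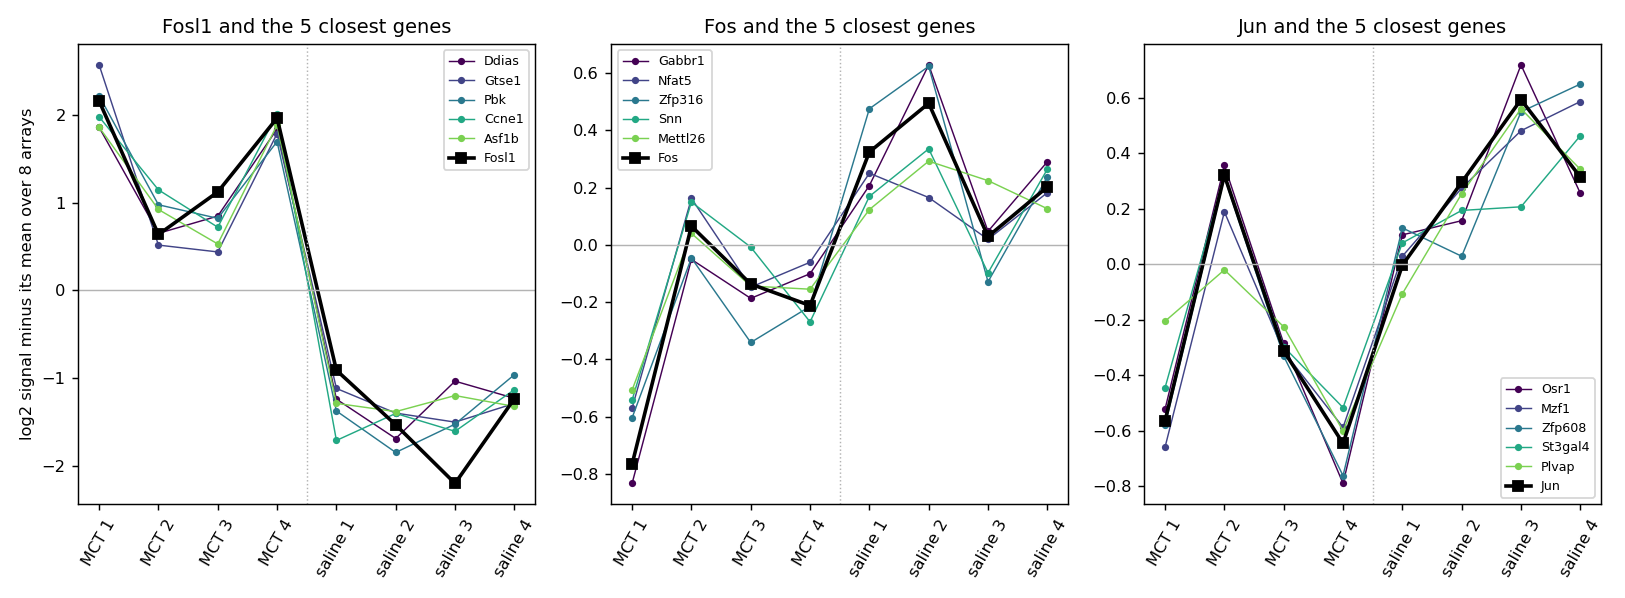
Log2 signal minus its mean over the 8 arrays (vertical axis) on each monocrotaline (MCT) and saline array for Fosl1, Fos and Jun (black squares) and the 5 genes closest to each (coloured). Fosl1 and its 5 neighbours are highest on monocrotaline replicates 1 and 4, while Fos is lowest on replicate 1 and Jun on replicate 4.

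The list called bZIP partners, other bZIP genes of which many but not all encode partners of Fos, Jun or Maf proteins, showed no call. Of 22 measured, 0 rose and 0 fell (limma, adjusted p under 0.05), beside 1.37% and 0.0627% of all genes. At an unadjusted limma p under 0.05, 2 were higher and 3 lower, beside 1286 and 1383 of all 19137 genes. Of the 22, 13 (59.1%) had a lower group mean, beside 53.9% of all genes. The median log2 fold change of the 22 was -0.11, against -0.03 over all genes. Scaling to the endothelial markers made it 0.38, with 3 lower, beside a median of 0.47 over all genes under that scaling. Atf4, the factor of the integrated stress response, averaged 4.45 ± 0.07 in monocrotaline arrays and 4.62 ± 0.19 in saline arrays (SD, n = 4 each), with a log2 fold change of -0.17 ± 0.13 (SE). Cebpd and Cebpb, inflammatory C/EBP factors, had log2 fold changes of -0.71 ± 0.26 and -0.54 ± 0.32 (SE), and Ddit3, which encodes CHOP, one of -0.04 ± 0.14 (SE).

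In the MAP kinase pathway, which phosphorylates AP-1 proteins and switches on their genes, 1 of 36 measured genes fell and 0 rose, beside 0.0627% and 1.37% of all genes. Map3k13, a kinase that acts on JNK, averaged -5.02 ± 0.28 in monocrotaline arrays and -3.96 ± 0.23 in saline arrays (SD, n = 4 each), a log2 fold change of -1.06 ± 0.18 (SE, limma adjusted p = 0.0334). All its monocrotaline arrays lay below all its saline arrays. Mapk3, which encodes ERK1, Map2k2, which encodes the ERK kinase MEK2, and Mapk14, which encodes p38 alpha, had log2 fold changes of -0.22 ± 0.18, 0.02 ± 0.10 and -0.29 ± 0.12 (SE), and none passed. The median over the 36 genes was -0.15 and 25 (69.4%, beside 53.9% of all genes) had a lower mean. Scaling to the endothelial markers gave 0.35 and 4, beside a median of 0.47 over all genes under that scaling. Mapk8, which encodes JNK1, had no matched probe. Leaving out monocrotaline replicate 1, 3 or 4 or any one saline array ended the call of Map3k13, with adjusted p from 0.0649 to 0.113, as did the replicate block (0.144) and scaling to the endothelial markers (0.204).

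Immediate early genes outside AP-1 leaned lower. Of 41 measured, 1 fell and 0 rose (limma, adjusted p under 0.05), 34 had a lower group mean, and 13 were lower and 2 higher at an unadjusted p under 0.05. Over all 19137 genes 0.0627% fell, 1.37% rose and 53.9% had a lower mean, and 1383 were lower and 1286 higher at that unadjusted p. The median log2 fold change was -0.26, and it lay between -0.30 and -0.17 under every other setting but one. With arrays scaled to the endothelial markers, which moved the median of all genes to 0.47, it was 0.24 and 11 of the 41 had a lower mean. Most genes had a higher mean under that scaling, so the 53.9% is no background for the 11 of 41. The share of all genes lower under it was not counted. That genes of this kind leaned lower was known from these arrays when the list was written, so the direction is not independent evidence. Nfkbia, the NF-kB inhibitor that is induced within minutes by NF-kB itself, averaged 3.79 ± 0.22 in monocrotaline arrays and 4.71 ± 0.21 in saline arrays (SD, n = 4 each), a log2 fold change of -0.92 ± 0.16 (SE, limma adjusted p = 0.035). Its call was lost without any one array other than monocrotaline replicate 3, with adjusted p from 0.0598 to 0.106, with the replicate block (0.113) and with scaling to the endothelial markers (0.3). Ier2, a nuclear immediate early protein, had a log2 fold change of -0.37 ± 0.13 (SE), Btg1, which slows proliferation, one of 0.10 ± 0.28 (SE), and Irf1, an interferon response factor, one of -0.16 ± 0.16 (SE), and none of the 3 passed.

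Beyond Nfkbia and Ier2, monocrotaline arrays lay entirely below saline arrays for 6 more of these 41 genes, singled out after their values were seen: Dusp1, Zfp36, Klf6, Rhob, Sgk1 and Trib1. That is 8 of 41, or 19.5%, beside 3.99% over all genes. Zfp36, which encodes the mRNA-destabilizing protein tristetraprolin, read -1.02, -0.52, -0.26 and -0.68 on monocrotaline replicates 1 to 4, against 0.07, 0.05, -0.10 and 0.00 on saline replicates 1 to 4 (log2 fold change -0.63 ± 0.17, SE, limma adjusted p = 0.148). Dusp1, a phosphatase that switches MAP kinases off, had a log2 fold change of -0.53 ± 0.18 (SE, adjusted p = 0.246). Ptgs2, the inducible cyclooxygenase, ran the other way at 1.29 ± 0.48 (SE) without passing (adjusted p = 0.299), and its probe rose above background on 1 of 4 saline arrays.

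Genes known as AP-1 targets showed no shared direction. Of 34 measured, 1 rose and 0 fell, beside 1.37% and 0.0627% of all genes. Of these targets 16 had a higher and 18 a lower mean (52.9% lower, beside 53.9% of all genes). The median log2 fold change was -0.05. When arrays were scaled to the endothelial markers it was 0.44, with 3 lower, beside a median of 0.47 over all genes. Ccl2, the chemokine that draws monocytes, read 1.93, 1.97, 1.90 and 1.96 on monocrotaline replicates 1 to 4, against 1.14, 0.93, 0.65 and 1.38 on saline replicates 1 to 4. Its monocrotaline arrays all lay above its saline arrays and close together (SD 0.03, n = 4), with a log2 fold change of 0.91 ± 0.16 (SE, limma adjusted p = 0.0393). The call was lost without any one array other than saline replicate 4, with adjusted p from 0.0634 to 0.122, and with the replicate block (0.156). Vim, the filament protein vimentin, was at -0.08 ± 0.19 (SE), Vegfa, the endothelial growth factor, at -0.54 ± 0.25 and Icam1, a leukocyte adhesion molecule, at 0.03 ± 0.14.

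Matrix metalloproteinases are well-known FOSL1 targets, and 3 could be measured, each named here after its values were seen and none passing. Mmp13, a collagenase, had a log2 fold change of -0.34 ± 0.40 (SE, limma adjusted p = 0.755), and Mmp14, a membrane-bound one, 0.73 ± 0.38 (SE, adjusted p = 0.427). Mmp12, macrophage elastase, read -0.97, -3.61, -0.90 and -1.05 on monocrotaline replicates 1 to 4, against -3.60, -3.77, -2.64 and -4.38 on saline replicates 1 to 4. Monocrotaline replicate 2 sat at the saline level while the other 3 lay above all saline arrays, so the groups overlapped (log2 fold change 1.97 ± 0.64, SE, limma adjusted p = 0.238). Without that replicate it was the target gene that passed, in place of Ccl2. Mmp3, Mmp8, Mmp9 and Mmp10 had probes but did not pass the filter on dim probes.

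**Figure D4:**
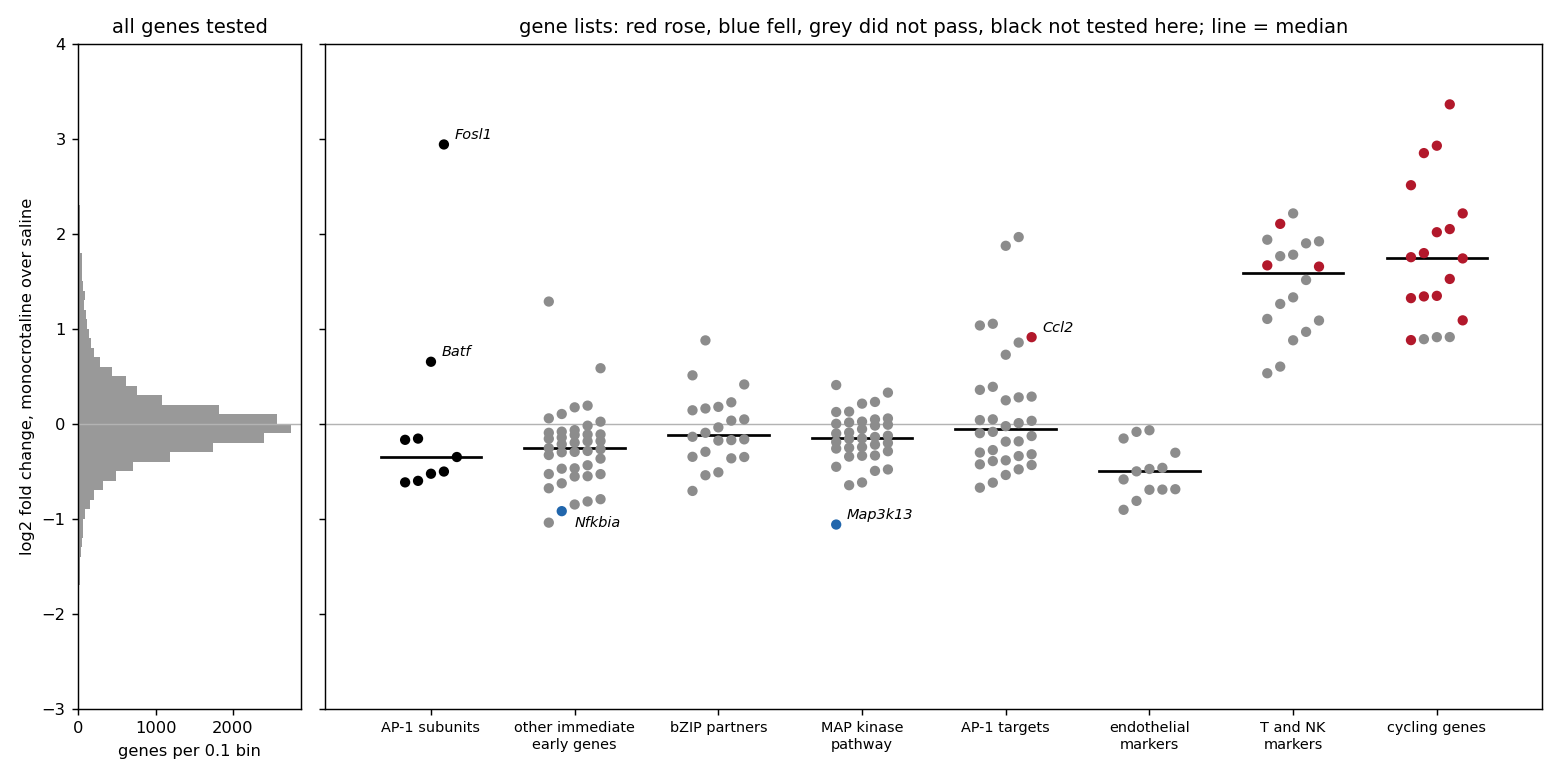
Log2 fold change of monocrotaline over saline (vertical axis) for all genes tested (left, number of genes per bin of 0.1, with changes above 3.9 in the top bin) and for the AP-1 subunits and the gene lists (right, 1 point per gene, line at the median). Red points rose, blue points fell and grey points did not pass, while the AP-1 subunits, in black, were not tested; the medians are -0.26 for other immediate early genes, -0.50 for endothelial markers and 1.74 for cycling genes.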

How the data were processed

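Each array's scanner file gives an intensity per spot: per the file headers, Agilent Feature Extraction 10.7.3.1 made a processed signal that is background-subtracted and detrended within the array and not scaled between arrays. Flag columns, per the file headers, hold other values, 0 or 1 per spot. The authors' deposited table holds log2 values of values already in log2: raising 2 to them gives the quantile-normalized log2 processed signal (largest difference 6.19e-09). Per the submitters' processing notes limma 3.6.9 was used, with its role not given in the sources used here.

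Control spots (4259) and flagged spots were left out, spots of a probe averaged, and log2 signals scaled to each array's 75th percentile; 17 probes had no usable spot on some array. Probes well above background on at least 4 of 8 arrays were kept (21652). Names came from accessions in a RefSeq table (assembly GRCr8), which named 18004 probes, and the brightest probe stood for its gene. The groups were tested with limma 3.58.1 in R 4.3.3, two-sided, adjusted by Benjamini-Hochberg over 19137 genes; SEs of members come from the 2 group variances. The fit was tested on simulated data. The members, lists and tests were chosen with earlier results of these data known. Named genes were all members, up to 6 called genes of each list, filled to 4 by mean signal, and the 5 genes closest to Fosl1, Fos and Jun; others are marked in the text. The alternatives were normexp, quantile and median scaling, the deposited table, other filters, the mean of probes, a replicate block, limma's trend and robust options, and leaving out arrays; scaling to the endothelial markers was added after seeing the data. All 4 samples per group are separate rats. The labels do not say that same-numbered samples are pairs, although these samples shared a slide column. Their deviations from the group means correlated at -0.33 to -0.01, so they were not treated as pairs.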

Additional observations from a re-analysis of the deposited data

Results flagged for a closer look

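For the 10 probes of the members and 42 other genes named here, 104 groups of 4 arrays were examined, and 3 held an array whose gap to the nearest other, divided by the group's range, exceeded Dixon's 95% critical value; chance flags about 1 group in 20. In the monocrotaline group Mmp12 was at -3.61 in replicate 2 while the rest spanned -1.05 to -0.90 (ratio 0.943). The other two were on saline replicate 4. Cebpb read 3.75 there, against 4.34 to 4.40 on the other saline arrays (ratio 0.907). Irf1 read 4.62 there, against 4.33 to 4.38 on the others (ratio 0.83).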

How the results depend on the processing

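One alternative turned the direction of several AP-1 genes, and others changed the size of single members. Scaling each array to its endothelial markers, chosen after seeing the data, left 4 of 8 members other than Fosl1 lower after monocrotaline in place of 7, with Junb at 0.14, Jund at 0.33 and Maff at 0.34, and raised the median of all genes to 0.47. It called 378 genes, all rises, 0 immediate early and 0 MAP kinase genes, and turned Atf4 (0.32), Ddit3 (0.46), Ier2 (0.13), Irf1 (0.34), Mapk3 (0.28), Mapk14 (0.21) and Vim (0.41) positive, values that all lie below that shifted median. Under the other 18 settings 6 or 7 members stayed lower. The Fosl1 difference was 1.35 with normexp, in place of 2.94, and 2.70 to 3.22 with 1 array left out. Requiring signal on all 8 arrays removed Fosl1, so that filter gave no value. The Fosl2 difference was -1.15 without monocrotaline replicates 1 and 3, in place of -0.62.

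The replicate block called 0 genes in all, and 0 in each list, against 274 without it. Leaving out 1 array gave 11 to 366 called genes, and leaving out monocrotaline replicates 1 and 3 gave 52. Immediate early genes numbered 0 with no filter, the deposited table, median or quantile scaling, or without those 2 arrays. MAP kinase genes numbered 0 with normexp, no filter or without those 2 arrays, and AP-1 targets 0 with median scaling, no filter or without those 2 arrays. Each of these 3 lists gave 0 to 1 with 1 array left out, the gene without monocrotaline replicate 2 being Socs3 among immediate early genes and Mmp12 among targets. bZIP partners gave 0 throughout.

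Genes near 0 changed sign: Ddit3 was 0.01 with quantile normalization, 0.029 with the deposited table and -0.115 to 0.024 with 1 array left out. Map2k2 was -0.026 and Icam1 -0.009 with median scaling, and Vim 0.006 with the deposited table. With 1 array left out Btg1 spanned -0.089 to 0.278, Map2k2 -0.016 to 0.037, Vim -0.209 to 0.032 and Icam1 -0.066 to 0.112. Beyond what each setting leaves out, the cause was not tested. Signal over background limits Fosl1 on the saline arrays.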
